A study of Mus musculus with 13 samples.

Results

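The transcripts described here come from 7 mouse genes whose coding sequence holds an adenosine-to-inosine (A-to-I) editing site that is conserved between mammals. They are Azin1, Flna, Cyfip2, Cog3, Tmem63b, Gria2 and Cdk13. The members were taken by gene symbol, by matching the Ensembl identifiers of the deposited table to the GENCODE annotation of GRCm38, and all 7 were found among 54532 rows, of which 54495 had a symbol.

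ADAR enzymes deaminate adenosine in double-stranded RNA to inosine, which the ribosome reads as guanosine. Most editing lies in repeats outside coding sequence, and recoding sites are the few positions where it changes an amino acid. At such a site the exon usually pairs with a complementary stretch of the same transcript, often in a nearby intron, to form the duplex that the enzyme binds. The Q/R site of Gria2 is the classic substrate of ADAR2 in neurons.

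All libraries came from YUMM1.7, an established mouse melanoma cell line of genotype WT as labelled. Cells received the solvent DMSO, ADAR1i-124 (an inhibitor of ADAR1) at 10 μM for 12 h, 5-AZA-CdR (5-aza-2'-deoxycytidine, an inhibitor of DNA methylation) at 1 μM for 72 h, or the combination, in which 5-AZA-CdR was followed by ADAR1i-124 at the same doses and for the same times. The order and doses of the combination come from the study's text, since the labels do not give them. The study also combined 5-AZA-CdR with ADAR1i-124 at 1 μM, so the dose in these combination libraries is not certain. Total RNA was sequenced after removal of ribosomal RNA, and RNA digested with a nuclease specific for single strands was precipitated with J2, an antibody to double-stranded RNA, with Z22, an antibody to Z-form nucleic acid, or with IgG as the control. There was 1 library per condition and 1 IgG library, whose treatment is not stated, so no difference between single libraries has a replicate check, and the 1 test that was run compares Z22 with J2 over the 4 treatments.

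The total RNA library of the combination was left out by the rule that defined the members, which states that its counts follow the opposite strand. Of 1245894 counts it holds 3 for Azin1, 7 for Flna, 25 for Tmem63b and 0 for Cyfip2, Cog3 and Gria2. Cdk13 goes the other way, with 277 counts or 222 CPM, above the 147 CPM that was its highest in the libraries used. The other 12 libraries hold 8167960 to 34571822 counts, with 17015425 for total RNA with DMSO, 17617961 with ADAR1i-124 and 34571822 with 5-AZA-CdR. A single locus that resembles ribosomal RNA, Gm42418, made up 34.9% of all counts in Z22 with DMSO. It made up 10.6% to 18.9% in the other precipitated libraries and at most 0.334% in total RNA. That Z22 library stood apart, with the median of all genes at -0.83 on the log2 scale against IgG, while the medians of the other Z22 libraries lay between -0.05 and 0.18. Each ratio that uses it is therefore given beside the median of all genes. Counts divided by the library total give CPM, the counts scaled to a common library total of 1e6, and log2 ratios were taken after adding 0.5 CPM, which understates changes of low genes. Brackets hold exact 95% intervals of the ratio of read shares without that addition. They reflect counting error alone, since the libraries carried no molecular identifiers and copies of 1 molecule may be counted more than 1 time.

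The labels call these cells mouse melanoma cells, and the defining markers of pigment cells were at or near 0. Of 7 melanocyte markers, Tyr, Tyrp1, Dct, Pmel, Mlana and Sox10 stood at 0 to 0.434 CPM in total RNA, and Mitf alone was expressed, at 22.2, 20.3 and 33.1 CPM in the DMSO, ADAR1i-124 and 5-AZA-CdR libraries. Of 3 markers of neural crest or dedifferentiated melanoma, Axl measured 1039, 1073 and 951 CPM in these libraries, Sox9 19.3, 62.2 and 121 CPM, or log2 ratios to DMSO of 1.66 and 2.61, and Ngfr was near 0. None of 4 leukocyte and 2 epithelial markers passed the minimum level used here. Of 2 endothelial markers, the cadherin Cdh5 measured 3.70, 17.8 and 81.1 CPM and Pecam1 0.353, 0.397 and 1.59 CPM. Of 4 neuronal markers, Map2 measured 6.41, 10.3 and 1.91 CPM, while Rbfox3, Snap25 and Syt1 had 0 to 6 reads, and the part of these markers in the results was not tested.

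The sequence around 7 recoding sites in 6 of the genes is shown because it is the feature that unites the genes. The edited adenosine is the capital letter in the middle of a window of 41 bases, read 5' to 3' from the GRCm38 genome on the transcribed strand. The residue known to be recoded was located in the main coding transcript of each of these genes, and each codon found there encodes the stated amino acid. All 7 genes lie on the reverse strand.
Flna Q/R, chrX:74226292-74226332: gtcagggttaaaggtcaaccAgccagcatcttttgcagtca
Cyfip2 K/E, chr11:46272623-46272663: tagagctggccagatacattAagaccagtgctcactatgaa
Cog3 I/V, chr14:75719699-75719739: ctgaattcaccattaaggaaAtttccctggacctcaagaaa
Tmem63b Q/R, chr17:45662929-45662969: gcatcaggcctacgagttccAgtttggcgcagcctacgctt
Gria2 Q/R, chr3:80706892-80706932: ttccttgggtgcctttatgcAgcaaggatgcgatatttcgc
Gria2 R/G, chr3:80692266-80692306: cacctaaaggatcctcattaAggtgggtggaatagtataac
Cdk13 Q/R, chr13:17804324-17804364: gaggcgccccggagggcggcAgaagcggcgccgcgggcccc
These 7 sites are exonic and coding. The site of Flna is in exon 42 of 46, that of Cyfip2 in exon 10 of 31, that of Cog3 in exon 17 of 23 and that of Tmem63b in exon 20 of 24. The Q/R site of Gria2 lies in exon 11 of 16, and its R/G site is 1 base from the end of exon 13, so that its codon is split by the intron whose first bases fill the rest of the window. The site of Cdk13 is in exon 1 of 14. The base after the edited adenosine is G at 5 of 7 sites, and the base before it is C at 4, A at 2, T at 1 and G at 0.

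The Cdk13 site also served the study as a test substrate for the enzyme. The sense strand of that designed RNA, labelled CDK13, and the mouse genome at chr13:17804315-17804376 are shown to set the substrate beside the endogenous transcript, with the adenosine of the Q/R codon, at position 33 of both, in capitals. The study's assay read several target sites in such a substrate, and this adenosine is marked only because it is the recoding site.
CDK13 substrate: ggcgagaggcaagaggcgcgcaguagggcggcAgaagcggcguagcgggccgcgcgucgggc
Mouse genome: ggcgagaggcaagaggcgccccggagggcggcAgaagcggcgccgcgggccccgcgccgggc
With U and T taken as the same base, 55 of 62 positions are identical, which is 88.7%. The flanks of this site are unusually rich in G and C. Over 61 bases around the adenosine, G and C make up 83.6% at the Cdk13 site and 39.3% to 60.7% at the other 6. The gene counts hold no bases, so editing at these sites was not measured here, and what follows is the amount of each transcript.

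The genes have different lengths and compositions. Their combined exons span 5098 bases in Tmem63b, 5185 in Cog3, 6256 in Azin1, 7103 in Cyfip2, 9400 in Flna, 13456 in Cdk13 and 15548 in Gria2, beside a median of 4665.5 over 11006 expressed protein-coding genes. Exonic G and C content runs from 39.8% in Azin1 to 57.2% in Tmem63b among the expressed members, with 53.8% in Flna. The share of exon bases that the genome marks as repeats was 2.13% in Flna, where 2.59% of the expressed genes had less and the median gene had 11.0%. It was 18.4% in Cdk13.

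Per length, the 7 transcripts covered more than 3 orders of magnitude. In total RNA with DMSO, Flna stood at 306 CPM per kb of exon (303 to 309), Azin1 at 40.6 (39.4 to 41.8) and Cog3 at 13.6 (12.9 to 14.4). Cdk13 stood at 10.9, Tmem63b at 8.83 (8.22 to 9.48), Cyfip2 at 0.124 (0.0695 to 0.205) and Gria2 at 0, which allows up to 0.0139. Neighbours in this order were separated by their counting intervals in all 6 steps. Flna was the highest and Gria2 the lowest of the 7 in each of the 12 libraries. Azin1 ranked next to Flna in 11 of them, while in Z22 with DMSO it ranked behind Tmem63b, at 5.81 (5.18 to 6.48) against 8.65 (7.81 to 9.56) CPM per kb. Tmem63b moved most in rank, from the fifth place in total RNA with DMSO to the third with ADAR1i-124 and with 5-AZA-CdR. Its interval overlapped that of Cog3 in the J2 libraries with 5-AZA-CdR and with the combination, and that of Cdk13 in the J2 library with ADAR1i-124.

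**Figure D1:**
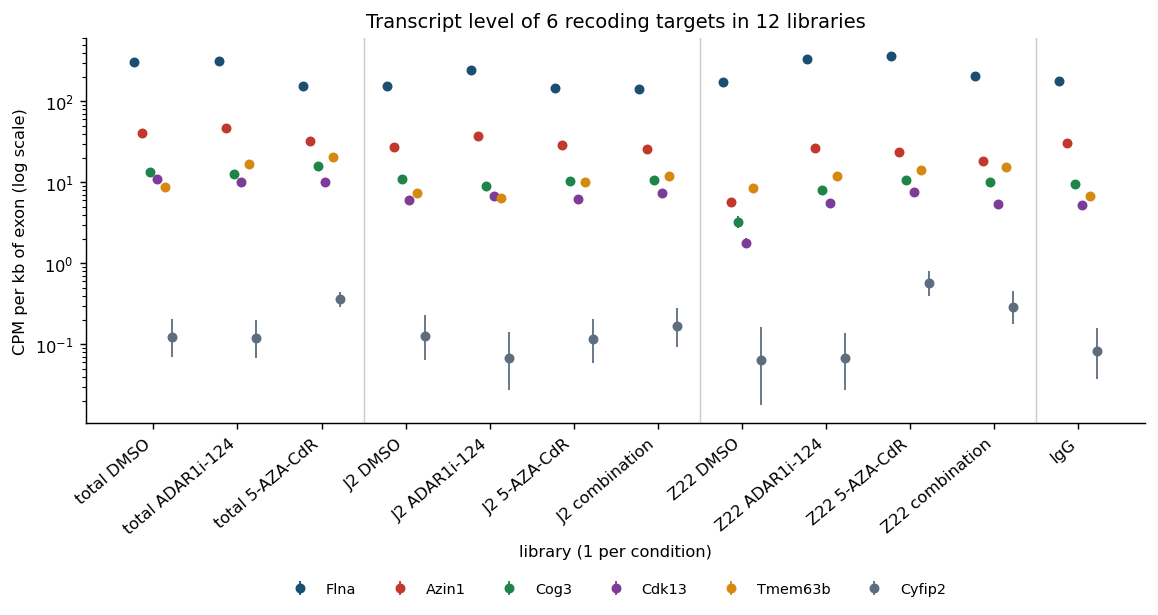
Level of 6 of the 7 recoding targets in each of 12 libraries, as CPM per kb of exon on a log axis, with bars for the exact 95% counting interval; Gria2, with 3 reads in all, is not drawn. Flna stands at the top of each library, Cyfip2 lies between 0.0645 and 0.569, and Azin1, Cog3 and Cdk13 are lowest in the Z22 library with DMSO.

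Flna, which encodes filamin A, a large protein that cross-links actin filaments, was the most abundant of the targets. It measured 2876 CPM in total RNA with DMSO, 2975 with ADAR1i-124 and 1475 with 5-AZA-CdR. Among the J2 libraries, that with DMSO held 1475 CPM, ADAR1i-124 2274, 5-AZA-CdR 1366 and both compounds together 1340.2. In the Z22 libraries it measured 1644, 3102, 3428 and 1955 CPM in the same order of treatments, and in the IgG library 1678. Flna in total RNA was thus nearly level between DMSO and ADAR1i-124 and lower with 5-AZA-CdR, while J2 was highest with ADAR1i-124. Z22 was highest with 5-AZA-CdR by library totals, but with ADAR1i-124 under TMM scaling and DESeq2 size factors.

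Azin1 encodes antizyme inhibitor 1, which binds antizyme and so spares ornithine decarboxylase, the enzyme that starts polyamine synthesis. It measured 254 CPM in total RNA with DMSO, 290.0 with ADAR1i-124 and 202 with 5-AZA-CdR. The J2 libraries held 170, 233, 180 and 160 CPM in that order, with the combination last, as for each gene below. The Z22 libraries held 36.3, 167, 150 and 116 CPM, and the IgG library 192. The Z22 library with DMSO, with 317 reads, was the lowest of all by a wide margin.

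Cog3 is a subunit of the COG complex, a tether for vesicles that return enzymes within the Golgi. It measured 70.6 CPM in total RNA with DMSO, 66.0 with ADAR1i-124 and 83.5 with 5-AZA-CdR. The J2 libraries held 57.4, 46.3, 53.8 and 55.2 CPM, the Z22 libraries 16.8, 41.3, 55.8 and 51.8 CPM, and the IgG library 49.3. Apart from Z22 with DMSO, the precipitated libraries lay close to one another.

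Cdk13 encodes a kinase that pairs with cyclin K and phosphorylates the tail of RNA polymerase II. It measured 147 CPM in total RNA with DMSO, 138 with ADAR1i-124 and 136 with 5-AZA-CdR. The J2 libraries held 81.9, 91.5, 83.2 and 98.8 CPM, the Z22 libraries 23.9, 74.5, 101 and 72.9 CPM, and the IgG library 70.3. Its total RNA values were the highest, and Z22 with DMSO was again the lowest.

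Tmem63b encodes a membrane channel that opens under osmotic or mechanical stress. It measured 45.0 CPM in total RNA with DMSO, 87.1 with ADAR1i-124 and 106 with 5-AZA-CdR. The J2 libraries held 37.3, 33.2, 51.1 and 61.0 CPM, the Z22 libraries 44.1, 60.4, 71.7 and 79.5 CPM, and the IgG library 34.7. Its Z22 library with DMSO, unlike those of Azin1, Cog3 and Cdk13, was above IgG.

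Cyfip2 belongs to the WAVE complex, which starts the branching of actin filaments, and was barely present. It had 15 reads in total RNA with DMSO, 15 with ADAR1i-124 and 88 with 5-AZA-CdR. The J2 libraries held 11, 7, 11 and 14 reads, the Z22 libraries 4, 7, 33 and 19, and the IgG library 9. These are 0.458 to 4.04 CPM, above 3 reads in all 12 libraries, and the 88 reads stand in the deepest library, where they are 2.55 CPM against 0.882 with DMSO.

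Gria2, a subunit of the AMPA receptor that carries fast excitatory signals between neurons, never exceeded the floor of 3 reads. It had 2 reads in total RNA with 5-AZA-CdR, 1 in J2 with the combination and 0 in the other 10 libraries, or 3 reads in 176880453. With so few reads over the whole gene, nothing can be said of its sites. Of the other subunits, Gria1 reached at most 0.122 CPM and Gria4 at most 0.174, and Gria3 reached 2.08 CPM in total RNA with 5-AZA-CdR from 0.176 with DMSO.

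The first comparison asks whether the targets changed in amount when ADAR1 was inhibited. In total RNA none of the 5 members that reached an average of 1 CPM was at least 2-fold higher with ADAR1i-124 than with DMSO, and none was at least 2-fold lower, where 7.71% and 8.7% of 13693 genes were. Tmem63b came nearest, at 1.93-fold and a log2 ratio of 0.94 [0.83 to 1.08], above 91.6% of the genes. It crossed the line with DESeq2 size factors and when centred on the median of all genes, which stood at -0.09. Azin1 was at 0.19 [0.13 to 0.25] and Flna at 0.05 [0.03 to 0.07]. Cog3 at -0.10 [-0.22 to 0.02] and Cdk13 at -0.09 [-0.17 to -0.01] lay at the median of all genes. Cyfip2 had 15 reads in each library. In RNA from bulk cells, fewer cells with a transcript and less of it per cell cannot be told apart.

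The editing enzymes themselves stood as follows in total RNA. Adar, the gene of ADAR1, stood at 233 CPM with DMSO and 58.9 with ADAR1i-124, a log2 ratio of -1.98, and was at 198 CPM with 5-AZA-CdR. This is RNA from single libraries and was not tested. For protein, the study's immunoblots at the same dose and time showed ADAR1 unchanged. Another of its blots of treated cells showed more ADAR1. Adarb1, the gene of ADAR2, measured 8.64, 8.68 and 11.8 CPM. Adarb2, whose product lacks catalytic activity, had 0, 0 and 4 reads.

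With 5-AZA-CdR, 2 of 6 members in total RNA were at least 2-fold higher than with DMSO, beside 17% of 14391 genes, and 0 were at least 2-fold lower, beside 8.96%. They were Tmem63b at 1.22 [1.12 to 1.35], or 2.34-fold, and Cyfip2 at 1.14 [0.73 to 2.43]. The value of Cyfip2 rests on 15 and 88 reads and came under the line with a pseudocount of 2 CPM. Cyfip2 passed the minimum only through the treated library, at 2.55 CPM against 0.882, so it could not have been counted as lower. Flna moved the other way, to -0.96 [-0.98 to -0.95], or 0.513 of its DMSO level, which left 9.54% of the genes below it. With TMM scaling, DESeq2 size factors or centring on the median of all genes, where it was at -1.02, Flna was 1 member at least 2-fold lower. Azin1 was at -0.33 [-0.38 to -0.27], Cdk13 at -0.11 [-0.18 to -0.04] and Cog3 at 0.24 [0.14 to 0.34], with the median of all genes at 0.06. The ratios of Tmem63b for both compounds divide by the same DMSO library, so they are not independent of each other. Flna was the member with the lowest ratio under 5-AZA-CdR.

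**Figure D2:**
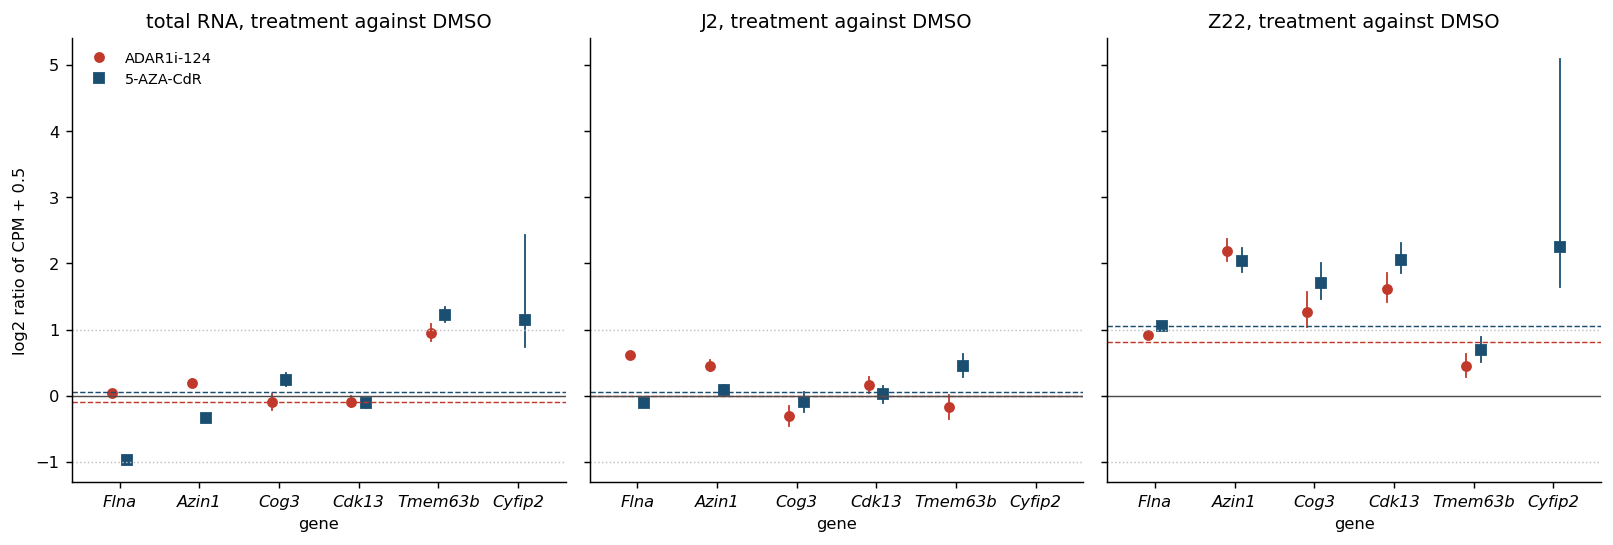
Log2 ratio of each treatment to DMSO for 6 recoding targets in total RNA, J2 and Z22, with vertical lines for exact 95% counting intervals of the ratio without the added 0.5 CPM, dashed lines for the median of all genes in the same comparison and dotted lines at 2-fold. Flna lies at -0.96 with 5-AZA-CdR in total RNA, Tmem63b at 0.94 and 1.22, and in Z22 the values are to be read against dashed lines at 0.81 and 1.06; Cyfip2 is drawn where it passed the minimum level.

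Because sums over a library can move all genes together, the share of each target among the counts of its own family was compared as well. Azin1 made up 96.9% of the counts of Azin1 and Azin2 with DMSO, 96.9% with ADAR1i-124 and 82.0% with 5-AZA-CdR. Azin2, its paralog, measured 8.11, 9.25 and 44.3 CPM in these libraries. Tmem63b made up 30.3% of the counts of its family with DMSO, the lowest share of the 12 libraries, 54.8% with ADAR1i-124 and 50.5% with 5-AZA-CdR, with Tmem63a at 103.4, 71.7 and 104 CPM, so that with ADAR1i-124 the paralog was lower, at a log2 ratio of -0.52, as Tmem63b was higher. Cdk13 made up 44.7%, 38.6% and 46.0% of the counts of Cdk12 and Cdk13. Cyfip2 made up 0.278%, 0.293% and 1.14% of the counts of Cyfip1 and Cyfip2, so nearly all transcripts of this pair were Cyfip1.

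**Figure D3:**
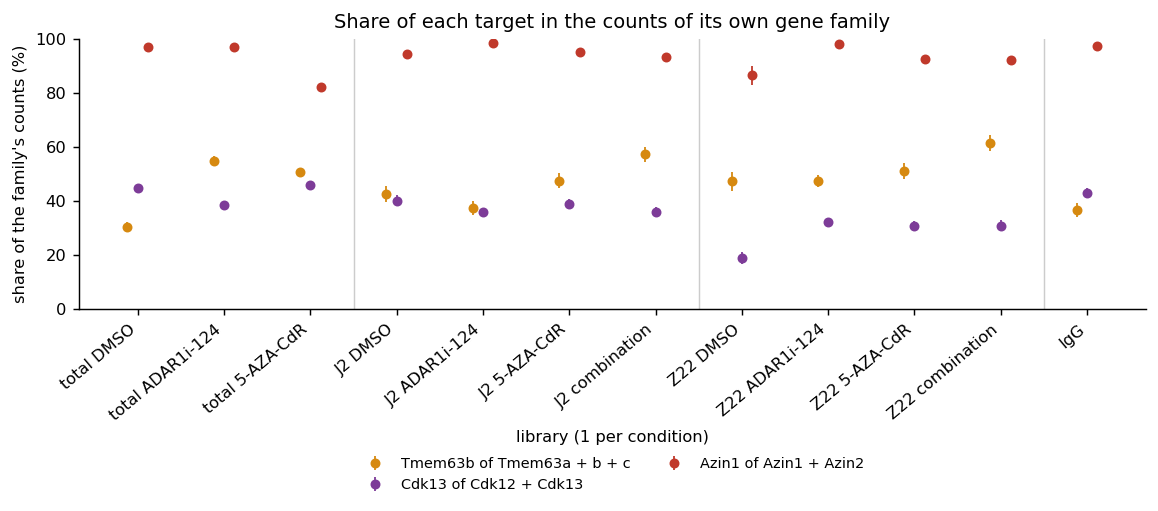
Share of the counts of a gene family, in percent, that belong to Tmem63b, Cdk13 and Azin1 in each of 12 libraries, with bars for exact 95% intervals. Within total RNA, Tmem63b goes from 30.3% with DMSO to 54.8% and 50.5%, and Cdk13 is lowest, at 18.8%, in Z22 with DMSO.

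The genes that work with the targets were counted by the same rule, and their counts are to be read against the shares of all genes given above for total RNA. Of 10 polyamine genes that act with Azin1, 0 were past 2-fold in either direction with ADAR1i-124, where Paox, a polyamine oxidase, was at -0.70 and Odc1, ornithine decarboxylase, at 0.61. With 5-AZA-CdR 3 of 10 passed the line upward, beside 17% of all genes, and 2 downward, beside 8.96%, and the largest ratios were those of Smox, spermine oxidase, at 3.29 and Azin2 at 2.38. Among 7 measured members of the WAVE complex, 0 were past the line with ADAR1i-124 and 1 was lower with 5-AZA-CdR, Wasf1 at -1.15. All 7 other COG subunits were under 2-fold with both compounds, with medians of -0.37 and 0.08. The muscle filamin Flnc, a paralog of Flna, stood at 376, 1735 and 594 CPM, a log2 ratio of 2.21 with ADAR1i-124 and 0.66 with 5-AZA-CdR. Cdk12 was at 0.27 with ADAR1i-124 and -0.19 with 5-AZA-CdR.

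A list of 17 other genes with known recoding sites was measured for comparison. With ADAR1i-124 8 passed the minimum, 2 were at least 2-fold higher, beside 7.71% of all genes, Cadps at 1.38 and Blcap at 1.01, and the median was 0.17 beside -0.09 for all genes. With 5-AZA-CdR 10 passed, 5 were at least 2-fold higher, beside 17% of all genes, and 0 lower, beside 8.96%. The median of the 10 was 0.59 beside 0.06 for all genes. There Cadps at 3.32 and Neil1 at 2.04 had the largest ratios among those that averaged 1 CPM or more in the 12 libraries. Cadps is a low transcript, at 0.411, 1.87 and 8.62 CPM, while Blcap stood at 34.3, 69.4 and 75.9 CPM. Cadps passed the minimum with both compounds only through the treated library, as Gria3 did with 5-AZA-CdR. Such genes could not have been counted as lower, and the same minimum applied to all genes. The median of the 7 targets, over the members that passed, was 0.05 with ADAR1i-124 and 0.06 with 5-AZA-CdR, where Cyfip2 passed only through the treated library.

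The J2 libraries ask how much of each transcript was held in double-stranded RNA. Against IgG, 0 of the 5 members that passed were at least 2-fold higher or lower in J2 with DMSO, where 13.5% and 8.97% of all genes were. With ADAR1i-124 the counts were again 0 and 0, beside 5.63% and 4.46% of the genes, with 5-AZA-CdR 0 and 0 beside 13% and 5.57%, and with the combination 0 and 0 beside 17.9% and 7.98%. The medians of all genes lay between -0.01 and 0.13. Most genes stayed within 2-fold of IgG too, so the counts of 0 are not a result about these 5 transcripts, and Cyfip2 and Gria2 were too low to be counted.

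Below the 2-fold line their J2 ratios differed in order. They too divide by the 1 IgG library, so their shared sign is not 4 separate findings. Cdk13 was above 0 in all 4, at 0.22 [0.09 to 0.35] with DMSO, 0.38 [0.26 to 0.50] with ADAR1i-124, 0.24 [0.12 to 0.37] with 5-AZA-CdR and 0.49 [0.37 to 0.61] with the combination. Tmem63b was at 0.11 [-0.08 to 0.29] and -0.06 [-0.24 to 0.12] with DMSO and ADAR1i-124, and at 0.55 [0.39 to 0.73] and 0.81 [0.65 to 0.98] in the libraries that had 5-AZA-CdR. Flna was at -0.19, 0.44, -0.30 and -0.32, and Azin1 at -0.18, 0.28, -0.09 and -0.26, in the same order. Both genes were thus above IgG in the J2 library with ADAR1i-124 alone, and below it in the other 3. Cog3 stayed between -0.09 and 0.22.

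Within J2, ADAR1i-124 against DMSO put 0 of 5 members past 2-fold, beside 7.37% of the genes higher and 10.8% lower. Flna was at 0.62 [0.60 to 0.65], or 1.54-fold, and Azin1 at 0.46 [0.38 to 0.54], or 1.37-fold, with the median of all genes at 0.00. Cog3 was at -0.31 [-0.46 to -0.15] and Tmem63b at -0.17 [-0.36 to 0.02]. In total RNA the ratios of Flna and Azin1 for this compound were 0.05 and 0.19. Relative to Flna, free of any scaling, J2 held 11.5 reads of Azin1 per 100 reads of Flna with DMSO and 10.2 with ADAR1i-124.

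For 5-AZA-CdR against DMSO within J2, 0 of 5 members were past 2-fold, beside 8.61% higher and 6% lower among all genes. Tmem63b was highest at 0.45 [0.28 to 0.63], and the others lay between -0.11 and 0.08. The combination against 5-AZA-CdR gave 0 of 6, beside 1.44% higher and 0.641% lower, with Tmem63b at 0.25 [0.10 to 0.41], Cdk13 at 0.25 [0.13 to 0.37] and Azin1 at -0.16 [-0.25 to -0.08]. Cyfip2, with 14 and 11 reads, was at 0.35 [-0.72 to 1.81].

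**Figure D4:**
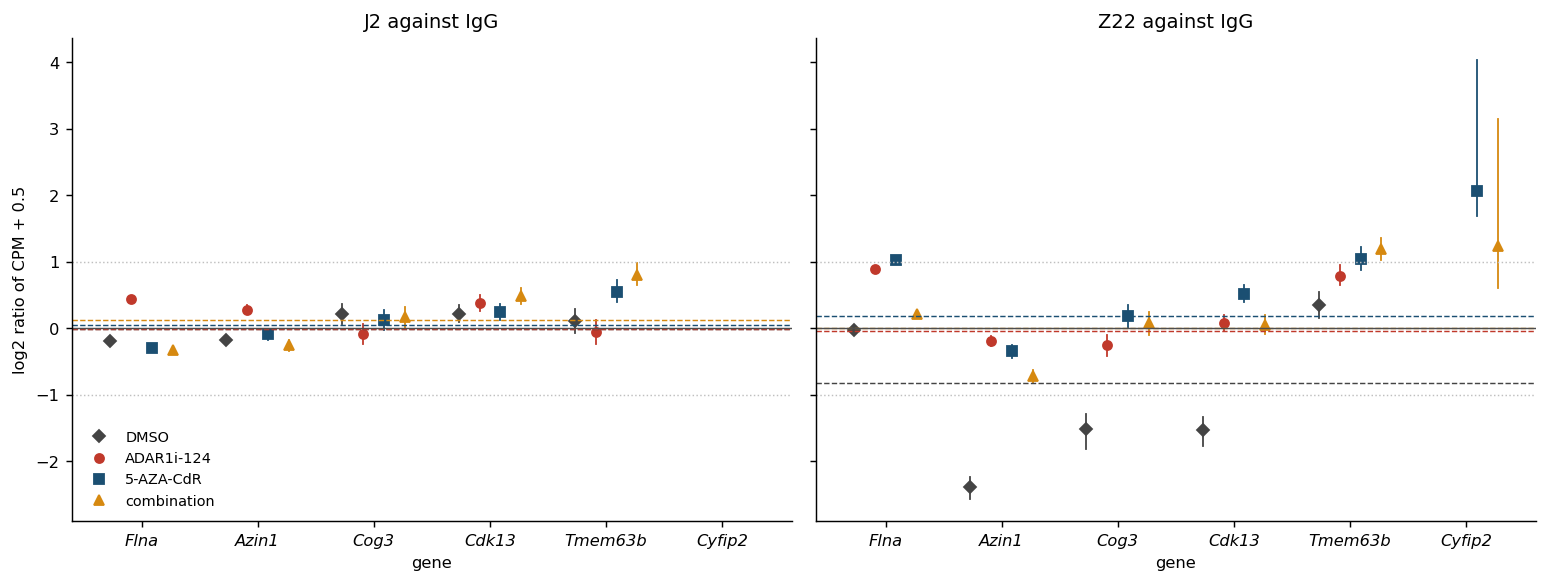
Log2 ratio of J2 and of Z22 to the IgG library for 6 recoding targets under 4 treatments, with vertical lines for exact 95% counting intervals of the ratio without the added 0.5 CPM, dashed lines for the median of all genes and dotted lines at 2-fold. The J2 values lie between -0.32 and 0.81, and in Z22 with DMSO Azin1, Cog3 and Cdk13 lie at -2.38, -1.52 and -1.53, below the dashed line at -0.83.

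The Z22 libraries ask the same of Z-form RNA. With DMSO, 3 of 5 members were at least 2-fold lower than in IgG, beside 45.4% of all genes, and 0 were higher, beside 11.3%. Azin1 was at -2.38 [-2.57 to -2.23], Cdk13 at -1.53 [-1.78 to -1.34] and Cog3 at -1.52 [-1.81 to -1.29], and relative to the median of all genes these are -1.55, -0.71 and -0.69. Flna at -0.03 [-0.06 to 0.00] and Tmem63b at 0.34 [0.16 to 0.54] stood above that median by 0.80 and 1.17. With TMM scaling Azin1 alone was past the line. With DESeq2 size factors and with centring, Azin1 was the 1 member at least 2-fold lower and Tmem63b was at least 2-fold higher.

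The Z22 library with DMSO also differed in ratios that do not depend on scaling. Per 100 reads of Flna, it held 2.21 reads of Azin1, beside 8.83 in total RNA with DMSO, 11.5 in J2 with DMSO and 11.4 in IgG. The other Z22 libraries held 5.39, 4.39 and 5.94 with ADAR1i-124, 5-AZA-CdR and the combination. For Cdk13 it held 1.46 reads, beside 2.40 to 3.73 in the other Z22 libraries and 4.19 in IgG, and for Cog3 1.02, beside 1.33 to 2.65 and 2.94. For Tmem63b it held 2.68, within the 1.95 to 4.07 of the other Z22 libraries and above the 2.07 of IgG. So Azin1, Cdk13 and Cog3 were low relative to Flna in all 4 Z22 libraries beside the 1 IgG library, and lowest with DMSO. Tmem63b relative to Flna was below IgG in 1 of 4. Flna itself exceeded the median of all genes against IgG by 0.80 with DMSO and by 0.93, 0.85 and 0.21 in the others. That lowers ratios to Flna. Relative to that median and in the same order, Cdk13 was at -0.71, 0.13, 0.34 and 0.04. Cog3 was at -0.69, -0.21, 0.00 and 0.06. Azin1 was below the median in all 4, at -1.55, -0.15, -0.52 and -0.73. The share of Cdk13 in the counts of Cdk12 and Cdk13 was 18.8% in Z22 with DMSO, 30.7% to 32.2% in the other Z22 libraries and 42.9% in IgG. In those other Z22 libraries Cdk13 itself was at 0.08, 0.52 and 0.05 against IgG, so the lower share there goes with more reads of Cdk12. The part of Gm42418 and of this single library in these values was not tested.

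With ADAR1i-124, 0 of 5 members were past 2-fold in Z22 against IgG, beside 7.15% of the genes higher and 1.85% lower. Flna was at 0.89 [0.86 to 0.91], above 90.9% of the genes, and Tmem63b at 0.79 [0.64 to 0.96], above 88.9%. Azin1 at -0.20 [-0.27 to -0.12], Cog3 at -0.25 [-0.41 to -0.10] and Cdk13 at 0.08 [-0.04 to 0.20] were near the median of all genes at -0.05.

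With 5-AZA-CdR, 3 of 6 members were at least 2-fold higher in Z22 than in IgG, beside 21.4% of the genes, and 0 were lower, beside 5.13%. They were Cyfip2 at 2.06 [1.69 to 4.03] from 33 and 9 reads, Tmem63b at 1.04 [0.88 to 1.22] and Flna at 1.03 [1.01 to 1.06]. Of these, Cyfip2 alone was past the line with TMM scaling, with DESeq2 size factors, with totals without the 20 largest genes and when centred on the median of all genes, which was 0.18. Cyfip2 passed the minimum only through its high level in Z22, at 4.04 CPM against 0.587 in IgG, so it could not have been counted as lower. Cdk13 was at 0.52 [0.39 to 0.66], Cog3 at 0.18 [0.01 to 0.35] and Azin1 at -0.35 [-0.45 to -0.25].

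With the combination, 2 of 6 were at least 2-fold higher, beside 17% of the genes, and 0 lower, beside 10.7%. They were Cyfip2 at 1.25 [0.61 to 3.15] and Tmem63b at 1.19 [1.03 to 1.36]. The value of Cyfip2 rests on 19 and 9 reads and came under the line with a pseudocount of 2 CPM. It again passed the minimum only through Z22, at 2.08 CPM against 0.587 in IgG, and could not have been counted as lower. Flna was at 0.22 [0.19 to 0.25] and Azin1 at -0.72 [-0.82 to -0.62], while Cog3 at 0.07 and Cdk13 at 0.05 had intervals that held 0. Tmem63b was above IgG in all 4 Z22 libraries, and Azin1 below it in all 4, but these ratios divide by the same single IgG library and are not independent.

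Within Z22 the treatments were set against the DMSO library that stood apart. For ADAR1i-124, 3 of 5 members were at least 2-fold higher, beside 42.9% of the genes, and 0 lower, beside 5.13%. Azin1 was at 2.19 [2.03 to 2.38], Cdk13 at 1.62 [1.42 to 1.86] and Cog3 at 1.27 [1.03 to 1.56], with the median of all genes at 0.81. Relative to that median Azin1 was at 1.38 and Cdk13 at 0.81, and Tmem63b at -0.36. With TMM scaling, with DESeq2 size factors and when centred, Azin1 alone was past the line.

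For 5-AZA-CdR, 5 of 6 members were at least 2-fold higher in Z22 than with DMSO, beside 52.1% of the genes, and 0 lower, beside 4.1%. Cyfip2, with 33 against 4 reads, was at 2.24 [1.65 to 5.10], Cdk13 at 2.06, Azin1 at 2.04, Cog3 at 1.70 and Flna at 1.06, with the median of all genes at 1.06. The value of Flna was thus that of the median gene, and it turned to -0.013 with DESeq2 size factors. Relative to the median, Cyfip2 was at 1.18, Cdk13 at 1.0, Azin1 at 0.98, Cog3 at 0.64 and Tmem63b at -0.36. With DESeq2 size factors and with centring, Cyfip2 alone was past the line. Cyfip2 passed the minimum only through the treated library, at 4.04 CPM against 0.458, so it could not have been counted as lower.

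The comparison of the combination with 5-AZA-CdR does not use the DMSO library. In Z22 it put 0 of 6 members past 2-fold, beside 2.28% of the genes higher and 7.11% lower. Flna was at -0.81 [-0.84 to -0.78], with 11.2% of the genes below it and the median of all genes at -0.18. Cyfip2 was at -0.82 [-1.86 to -0.10] from 19 and 33 reads, and Cdk13 at -0.47 [-0.62 to -0.32]. By library totals Tmem63b at 0.15 [-0.01 to 0.31] was the 1 member above 0, while Cog3 at -0.11 [-0.30 to 0.08] was also above the median of all genes. In J2 the same comparison had Flna at -0.03 [-0.06 to 0.00], beside the -0.81 in Z22, and whether these differ was not tested.

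Against total RNA of the same treatment, the J2 libraries held 0 of 5 members at least 2-fold lower with DMSO, beside 17.3% of the genes. With ADAR1i-124 they held 1 of 5, beside 14.7%, Tmem63b at -1.38 [-1.54 to -1.24], below which lay 6.96% of the genes. With 5-AZA-CdR they held 2 of 6, beside 18.9%, Cyfip2 at -1.2 [-2.68 to -0.71] and Tmem63b at -1.04 [-1.17 to -0.93]. Neither was past the line with TMM scaling, DESeq2 size factors or totals without the 20 largest genes. Cyfip2 passed the minimum only through total RNA, at 2.55 CPM against 0.827 in J2, so it could not have been counted as higher. Tmem63b in J2 was thus below its own total RNA by more than the median gene under each compound, while total RNA itself was higher than with DMSO. Both values for a compound use the same total RNA library, so they are not independent. The medians of all genes in these comparisons were -0.36, -0.30 and -0.37.

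In Z22 with DMSO, 3 of 5 members were at least 2-fold lower than in total RNA, beside 54.6% of the genes, and these were Azin1 at -2.79, Cdk13 at -2.59 and Cog3 at -2.04, with the median of all genes at -1.18. With DESeq2 size factors and with centring, Azin1 and Cdk13 alone were lower and Tmem63b was at least 2-fold higher. With ADAR1i-124 0 of 5 were, beside 11.8%. With 5-AZA-CdR 0 of 6 were lower, beside 14.2%, and 1 was at least 2-fold higher, beside 7.01%. That gene was Flna, at 1.22 [1.2 to 1.24], above 95.2% of the genes, where total RNA stood at 1475 CPM and Z22 stood at 3428. In the same treatment the J2 ratio of Flna to total RNA was -0.11 [-0.14 to -0.09].

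Z22 and J2 were set against each other in the 4 treatments as pairs, which asks whether a transcript was recovered more by one antibody whatever the treatment. The log2 ratio of Z22 to J2 for Tmem63b was 0.24 in DMSO, 0.85 under ADAR1i-124, 0.49 under 5-AZA-CdR and 0.38 when both were given. For Flna, in that order, it was 0.16, 0.45, 1.33 and 0.54. For Azin1 it was -2.21, -0.48, -0.26 and -0.46. The medians of all genes in these pairs were -0.80, -0.00, 0.13 and -0.10, so that in the DMSO pair Tmem63b was at 1.04, Flna at 0.96 and Azin1 at -1.41 relative to the median. Without regard to these medians, Tmem63b and Flna were above J2 in 4 of 4 treatments and Azin1 in 0 of 4, while Cog3 and Cdk13 were above it in 1 of 4 and Cyfip2 in 2 of 4. In edgeR's quasi-likelihood test with treatment as the block and TMM scaling, 0 of 6 members passed an adjusted p of 0.05 and 0 of 13898 genes (0%) did, while 3 members and 3062 genes had an unadjusted p under 0.05. The fitted log2 difference was 0.69 ± 0.20 (SE) for Tmem63b, with an adjusted p of 0.127, 0.82 ± 0.26 for Flna, with 0.144, and -0.65 ± 0.23 for Azin1, with 0.164, beside a median of all genes of -0.03. With DESeq2 in place of edgeR, Flna passed at an adjusted p of 0.0139, as 1 of 915 genes that did among 13898 tested. In edgeR with no minimum level it passed at 0.0165, as 1 of 1474 genes among 31725 tested. The pairs are different treatments, so a response to treatment that differs between the antibodies counts as error here.

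The members differed in how their levels ran together over the 12 libraries. On the log2 scale of CPM, Pearson's r was 0.96 between Cog3 and Cdk13, 0.91 between Azin1 and Cdk13 and 0.87 between Azin1 and Cog3. Pairs with Flna or Tmem63b gave 0.10 to 0.40. The points are libraries of several kinds that share total counts and the low Z22 library with DMSO, so these values are descriptions. Among 8889 genes that averaged 10 CPM or more, those with the most similar course were Rictor (r = 0.99) and Snx14 (r = 0.99) for Cog3, Ubr3 (r = 0.99) and Elf2 (r = 0.99) for Cdk13, and Tbp (r = 0.99) and Dstn (r = 0.99) for Azin1. For Tmem63b they were Llgl1 (r = 0.97) and Ripor1 (r = 0.96), and for Flna Elac2 (r = 0.93) and Ppp1r12b (r = 0.93). Flna therefore had no gene that followed it as closely as those of Azin1, Cog3 and Cdk13 did.

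Some reads at these loci belong to overlapping genes. Mrpl14, a ribosomal protein gene of mitochondria on the strand opposite to Tmem63b, had 20 to 395 reads per library, against 385 to 3660 for Tmem63b, and how the counting assigned reads where they overlap is not given in the sources used here. For Cdk13, Gm48624 on the same strand had 9 to 413 reads and 8430406P12Rik 0 to 109. No overlapping gene of Azin1, Cog3, Cyfip2 or Gria2 reached more than 35 reads in the 12 libraries, and Flna has none.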

How the data were processed

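Total RNA and RNA precipitated with J2, Z22 or IgG from YUMM1.7 cells gave 13 libraries, 1 per condition, grouped by their labels. The authors ran the mRNA-seq and noncoding RNA-seq workflows of snakePipes, with STAR mapping to GRCm38, and deposited raw read counts per gene, with no normalization. The counting program within it and its strand setting are not given in the sources used here. Library totals were 8167960 to 34571822 counts in the 12 libraries used. The combination library of total RNA was left out because its counts follow the other strand.

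Counts were divided by library totals of the table (CPM), and log2 ratios were taken after adding 0.5 CPM. Members that averaged 1 CPM or more in the libraries compared were counted past a 2-fold line in 22 comparisons, beside the share of all genes past it. No condition has a replicate, so single libraries were compared with no test. Z22 and J2 were also compared over the 4 treatments with edgeR's quasi-likelihood test (treatment as block, TMM, genes averaging 1 CPM or more in the 8 libraries, Benjamini-Hochberg adjustment over all of them), added after seeing the data. Intervals are exact (Clopper-Pearson) at 95%, and 3 counts were taken as the floor. The calculations were tested on simulated data. Levels per length use the union of exons in GENCODE M21.

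The members, lists and rules were chosen with earlier results of these data known. The named genes are the members, the ADAR genes, direct paralogs, up to 2 genes per list with the largest absolute ratio, and 2 genes per member with the most similar course. Gm42418, the overlapping genes and the marker genes were named after their values were seen. Residues known to be recoded were located in the main coding transcripts, 1 site and 1 paralog are not reported here, and the Cdk13 substrate sequence came from the oligonucleotides listed by the study.

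Alternatives were TMM scaling (edgeR 4.0.16), DESeq2 1.42.0 size factors, totals without the 20 largest genes, pseudocounts of 0.1 and 2 CPM, no minimum, a 4-fold line and, added after seeing the data, centring on the median of all genes. R 4.3.3 and Python 3.11.15 with numpy 2.4.6, pandas 2.3.3, scipy 1.17.1 and matplotlib 3.10.9 were used.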

Additional observations from a re-analysis of the deposited data

Results flagged for a closer look

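Some members moved in opposite directions from the median of all genes in different fractions, with counting intervals on either side of it. With 1 library per condition, none of these differences was tested, and those in Z22 share the DMSO library that stood apart. Values here are log2 ratios to DMSO minus the median of all genes. For ADAR1i-124, Tmem63b was at 1.04 in total RNA and -0.36 in Z22, a difference of -1.40, and Cog3 was at -0.31 in J2 and 0.46 in Z22, a difference of 0.77. For 5-AZA-CdR, Tmem63b was at 1.16 in total RNA, 0.39 in J2 and -0.36 in Z22, so that Z22 differed from total RNA by -1.53 and from J2 by -0.75. Azin1 was at -0.39 in total RNA and 0.98 in Z22, a difference of 1.36, and Cdk13 was at -0.17 and 1.0, a difference of 1.17. Cog3 was at 0.18 in total RNA, -0.15 in J2 and 0.64 in Z22, with J2 differing from total RNA by -0.33 and Z22 from J2 by 0.79.

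The combination library of total RNA, which entered no comparison, held reads on genes opposite to members. Gm16172, antisense to Tmem63b, had 496 counts there and 0 in the other 12 libraries. Gm49077, antisense to Azin1, had 453 counts and at most 8 elsewhere, and Mir466i, opposite to Cdk13, had 25 and at most 1. Azin1 itself had 3 counts in that library, Tmem63b 25 and Cdk13 277, or 222 CPM, above its level in each library used.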

How the results depend on the processing

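The labels give no replicate numbers, so pairing by number was not done. Z22 and J2 were paired over the treatments, a test added after seeing the data, in which edgeR called 0 members and 0 genes. The count was 1 member with the DESeq2 test (915 of 13898 genes) and with no minimum level (1474 of 31725 genes), in both cases Flna. It stayed 0 members with library totals, with DESeq2 size factors, without the block and without each treatment in turn, although 849 of 14059 genes passed without the DMSO pair. The counts of members past 2-fold did not move with a pseudocount of 0.1 CPM or with no minimum level, in any of 22 comparisons. The members past the line, or their direction, changed in 6 comparisons with TMM, 8 with DESeq2, 4 with totals without the 20 largest genes and 8 with centring. These settings change the totals that all genes are divided by, or subtract their median. With DESeq2 size factors and with centring, total RNA with ADAR1i-124 against DMSO had 1 member past the line in place of 0. Total RNA with 5-AZA-CdR had 3 in place of 2 with TMM, DESeq2 and centring, the third being Flna, lower. J2 against total RNA with 5-AZA-CdR had 0 in place of 2 with TMM, DESeq2, totals without the 20 largest genes and centring. Z22 against IgG with DMSO had 1 in place of 3 with TMM and 2 with DESeq2 and centring. Z22 against total RNA with DMSO kept a count of 3 with DESeq2 and centring, with Tmem63b higher and Cog3 out. Z22 against IgG with 5-AZA-CdR had 1 in place of 3 with those 4 settings. Z22 with ADAR1i-124 against DMSO had 1 in place of 3 with TMM, DESeq2 and centring, and 2 without the 20 largest genes. Z22 with 5-AZA-CdR against DMSO had 3 in place of 5 with TMM, 4 without the 20 largest genes and 1 with DESeq2 and with centring. There the ratio of Flna, 1.06, turned to -0.013 with DESeq2 and to -0.00025 with centring. A pseudocount of 2 CPM gave 1 in place of 2 for total RNA with 5-AZA-CdR against DMSO, for J2 against total RNA with 5-AZA-CdR and for Z22 against IgG with the combination, in each case without Cyfip2. At a 4-fold line the counts were 0 for total RNA with 5-AZA-CdR against DMSO, for J2 against total RNA with ADAR1i-124 and with 5-AZA-CdR, for Z22 against IgG with the combination and for Z22 against total RNA with 5-AZA-CdR. They were 1 for Z22 against IgG with DMSO and with 5-AZA-CdR, 1 for Z22 with ADAR1i-124 against DMSO and 3 for Z22 with 5-AZA-CdR against DMSO. Depth limits Cyfip2, at 4 to 88 reads, and Gria2, at 0 to 2.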
